A study of Homo sapiens with 11 samples.

Results

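MUC5AC, MUC5B and BPIFB1 are 3 genes of airway mucus, followed here through the RNA and m6A data of human A549 and H1299 lung cancer cells. They were found by gene symbol among the 21316 genes of the A549 RNA table, which lists all 3, and the 20915 genes of the H1299 table, which lists the 2 mucins. The members were chosen on their measured levels in the A549 libraries, so those levels are given as a description with no test. The same holds for the wide m6A peak near 1.26 Mb of chromosome 11, which belongs to the definition of the set.

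MUC5AC and MUC5B encode the gel-forming mucins of the airway, very large secreted glycoproteins that link end to end into mucus. MUC5B is made mainly by submucosal glands and small-airway secretory cells and is needed for normal mucociliary clearance, while MUC5AC is made by goblet cells of the surface epithelium and is induced in allergic inflammation. BPIFB1, also called LPLUNC1, is a secreted member of the bactericidal/permeability-increasing fold family found with both mucins in airway secretions. m6A is a methyl mark on adenosines of mRNA, written by a complex whose catalytic subunit is METTL3.

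A549 is a line derived from a lung adenocarcinoma, and H1299 a line from a lymph node metastasis of a large cell lung carcinoma. Each line had 1 RNA library from cells carrying a short hairpin RNA against METTL3 numbered 1 (shMETTL3 1), another numbered 2 (shMETTL3 2), and 1 from cells carrying a hairpin against GFP (shGFP), the control. For m6A there were peak lists from 2 immunoprecipitations of A549 RNA and from 1 of H1299 RNA, all of samples whose labels name no hairpin. Whether 1 and 2 are different hairpins or repeats of the same one, and whether they were separate cultures, is not stated in the labels. All cells were grown in DMEM with 10% serum, and poly(A) RNA was selected.

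The RNA values are a signal per gene, a read count divided by 1 factor for each library. The 3 A549 libraries held 14447379 (shMETTL3 1), 16504759 (shMETTL3 2) and 19966206 (shGFP) reads in genes, and those of H1299 between 23099169 and 26351309. METTL3, the targeted gene, had a signal of 231 and 232 in A549 shMETTL3 1 and 2, against 557 in shGFP. In H1299 it had 123 and 100.2, against 271. A549 is often used to model type 2 alveolar cells, whose markers were uneven: the surfactant transporter ABCA3 had 566, 425 and 405 in A549 shMETTL3 1, shMETTL3 2 and shGFP. The surfactant gene SFTPC had 0.36, 0.31 and 0 in the same libraries, and the lung lineage factor NKX2-1 had the same 3 values. PTPRC, which defines leukocytes, had 0, 0 and 0.26.

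Both mucins were high in A549 shMETTL3 1, low in shMETTL3 2 and intermediate in shGFP, while METTL3 was at about the same level in both knockdown libraries. MUC5AC had a signal of 9931 in shMETTL3 1 (95% Poisson interval 9814 to 10048, from 27806 reads) and 857 in shMETTL3 2 (825 to 890, from 2742 reads), against 2309 in shGFP (2261 to 2358, from 8775 reads). The intervals cover counting error only, and no interval overlaps another. MUC5AC took 0.193% of all gene reads in shMETTL3 1 (Wilson 95% interval 0.190 to 0.195%).

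MUC5AC in shMETTL3 1 was 4.30 times the shGFP level (95% counting interval 4.20 to 4.41). In shMETTL3 2 it was 37.1% of the shGFP level (35.5 to 38.7%). Between the knockdown libraries the ratio of shMETTL3 1 to shMETTL3 2 was 11.6 (11.1 to 12.1). The pair therefore has no common direction: the mean of its log2 differences from shGFP was 0.34, made of 2.10 and -1.43.

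MUC5B had a signal of 3074 in shMETTL3 1 (3009 to 3140, from 8607 reads) and 140.0 in shMETTL3 2 (127 to 154, from 448 reads), against 699 in shGFP (673 to 727, from 2658 reads). It had the same order of libraries as MUC5AC, again with intervals that do not overlap. shMETTL3 1 stood at 4.39 times shGFP (4.21 to 4.59), close to the ratio for MUC5AC. shMETTL3 2 stood at 0.200 times shGFP (0.181 to 0.221), below the 0.371 times of MUC5AC. The ratio of shMETTL3 1 to shMETTL3 2 was 21.96 (19.97 to 24.20), and the log2 differences from shGFP were 2.13 and -2.31.

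Because of that difference, the balance between the 2 mucins was not the same in every library. The ratio of MUC5AC to MUC5B signal was 3.23 in shMETTL3 1 and 6.12 in shMETTL3 2, against 3.30 in shGFP. The ratio is not per length, so only its change between libraries can be read. The mucins are related genes with similar repeats, and how the authors counted reads that match both is not given in the sources used here.

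BPIFB1 had a signal of 111 in shMETTL3 1 (99.1 to 124, from 311 reads) and 0.63 in shMETTL3 2 (0.076 to 2.26, from 2 reads), against 1.05 in shGFP (0.287 to 2.70, from 4 reads). Nearly all of its A549 reads were in shMETTL3 1. The ratio of shMETTL3 1 to shGFP was 106, with a wide counting interval of 40.8 to 390 because of the 4 control reads. The ratio of shMETTL3 2 to shGFP was 0.594 (0.0537 to 4.14), so a difference between these 2 libraries was not detectable at this depth. On the log2(signal + 1) scale the differences from shGFP were 5.77 and -0.33.

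**Figure D1:**
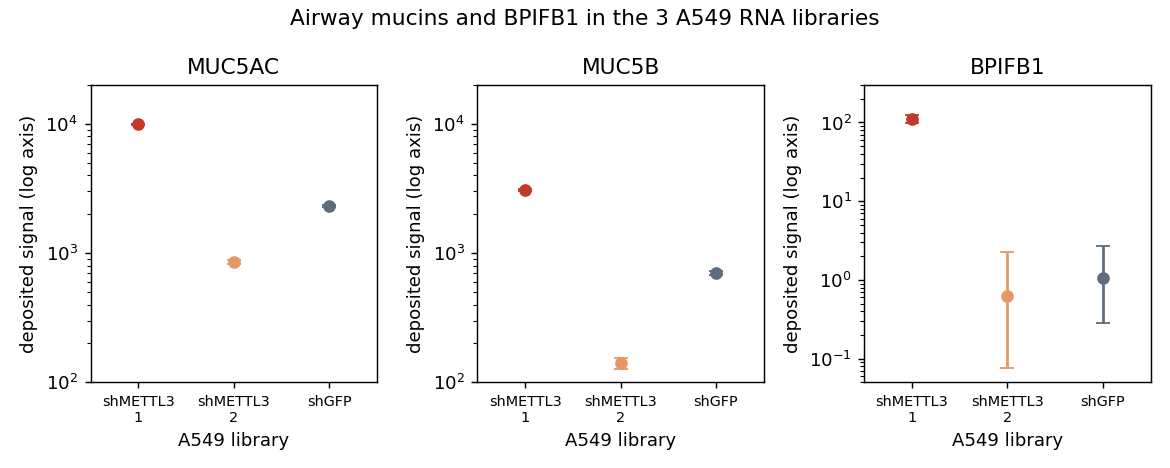
Deposited signal of MUC5AC, MUC5B and BPIFB1 in the A549 libraries shMETTL3 1, shMETTL3 2 and shGFP, on log axes, with 95% Poisson intervals for counting error. Each gene is highest in shMETTL3 1. The mucins are lowest in shMETTL3 2, at 857 and 140.0, while BPIFB1 is near 1 in both other libraries.

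In H1299 the members were at or near 0. MUC5AC had a signal of 0.2 and 0 in shMETTL3 1 and 2, against 0 in shGFP, and MUC5B had 0.9 and 0.2, against 0.8. BPIFB1 is not in the H1299 table. No ratio is given for this line, and neither mucin reached a mean signal of 1, the minimum for a gene to enter the comparisons across all genes. Within each line the order of levels is shMETTL3 1, shGFP, shMETTL3 2 for both mucins in A549, and no order beyond counting error in H1299.

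The size of these differences can be set beside all genes of A549. Of 17454 genes with a mean signal of at least 1, 608 (3.48%) were at least 2-fold higher in shMETTL3 1 than in shGFP, all 3 members among them. BPIFB1 passed this minimum only through shMETTL3 1, so its place among them follows from the filter. In shMETTL3 2, 315 genes (1.8%) were at least 2-fold lower than in shGFP, among them both mucins and not BPIFB1. In the other directions, 241 genes (1.38%) were at least 2-fold lower in shMETTL3 1 and 202 (1.16%) higher in shMETTL3 2. Being higher in shMETTL3 1 and lower in shMETTL3 2 was met by 65 genes (0.372%), including MUC5AC and MUC5B. The members were chosen for these values, and nothing is read from the counts. limma called 0 of 17454 genes (0%) in A549 at an adjusted p under 0.05, with 115 at an unadjusted p under 0.05. edgeR, run on the recovered reads with its own filter, also called 0 genes, with 111 of 16263 at an unadjusted p under 0.05. In H1299 limma called 0 of 16470 genes (0%), with 99 at an unadjusted p under 0.05.

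**Figure D2:**
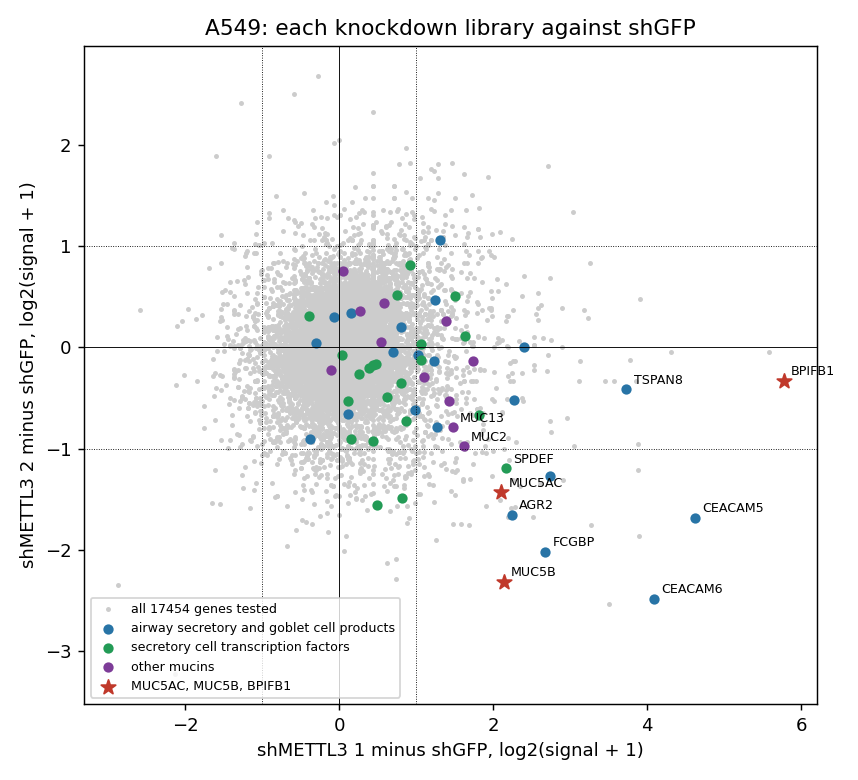
Difference from shGFP in log2(signal + 1) for A549 shMETTL3 1 (horizontal axis) and shMETTL3 2 (vertical axis), 1 point for each of 17454 genes, with dotted lines at 2-fold. MUC5AC at 2.10 and -1.43 and MUC5B at 2.13 and -2.31 lie at the lower right, and BPIFB1 at 5.77 and -0.33 lies at the right edge of the cloud.

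The other genes of mucus were read from lists, which are described by counts of genes past 2-fold in each library and by medians. No gene of any list passed limma's test. For reference, the median of all 17454 genes was 0.02 in shMETTL3 1 and -0.01 in shMETTL3 2, as a log2 difference from shGFP. Of these genes, 3.48% were at least 2-fold higher in shMETTL3 1 and 1.38% lower. In shMETTL3 2, 1.16% were higher and 1.8% lower. These shares are the background for the list counts. The minimum mean includes shMETTL3 1. A gene with almost no signal elsewhere can therefore pass through that library alone and then count as higher there. The lists were chosen with earlier results known.

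Of 18 other mucin genes, 15 were listed for A549 and 11 had a mean of at least 1. In shMETTL3 1, 6 of the 11 were at least 2-fold higher than shGFP, beside 3.48% of all genes. None was 2-fold lower, beside 1.38% of all genes, and the median log2 difference was 1.10. In shMETTL3 2 none was 2-fold changed, with a median of -0.14. MUC13, a membrane-bound mucin of gut and other epithelia, had 269.64 in shMETTL3 1 and 55.31 in shMETTL3 2, against 96.32 in shGFP. MUC3A, a membrane mucin of the intestine, had 116.79 and 31.25, against 34.47. MUC16, the membrane mucin that carries the CA-125 antigen, had 27.14 and 6.25, against 9.47. These 3 were high in shMETTL3 1, and their shMETTL3 2 values were below shGFP by less than 2-fold. MUC1, a membrane mucin of most epithelia, was near 0 in all A549 libraries, with 0.71 and 0.94, against 0.

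MUC2 and MUC6 share the gel-forming mucin cluster on the short arm of chromosome 11 with both members. In RefSeq annotation of GRCh38.p14 the order is MUC6, MUC2, MUC5AC, MUC5B and TOLLIP, with the antisense gene MUC5B-AS1 inside the span of MUC5B. The strand setting of the counting is not given in the sources used here, so reads of MUC5B and of its antisense partner cannot be told apart. MUC2, the main gel-forming mucin of the intestine, had 23.93 and 3.13 in shMETTL3 1 and 2, against 7.11 in shGFP, the same order of libraries as MUC5AC and MUC5B. MUC6, the gel-forming mucin of stomach glands, had 10.0 and 6.88, against 6.58, within 2-fold in both. TOLLIP, an adaptor of Toll-like receptor signalling next to MUC5B, had 500.4 and 473, against 466. AP2A2, a subunit of the clathrin adaptor on the other side of the cluster, had 449.6 and 351, against 384. DUSP8, a phosphatase of MAP kinases, had 50.7 and 20.9, against 30.5, and BRSK2, a serine/threonine kinase, had 13.2 and 17.2, against 21.6. Of the 7 neighbours on the list, MUC2 was therefore the single gene past 2-fold in either library.

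BPIFB1 lies in a cluster of related genes on chromosome 20. Of 12 other genes of its family, 7 were listed and 3 had a mean of at least 1. BPIFA1, also called SPLUNC1, an abundant secreted protein of the upper airway, had 2.14 in shMETTL3 1 and 0 in shMETTL3 2, against 0 in shGFP. BPIFA2, a salivary member of the family, had 3.57 and 0, against 0.53. Both were detected at a few reads, highest in shMETTL3 1. PLTP, a phospholipid transfer protein of the family outside the cluster, had 11.1 and 13.8, against 13.4, and LBP, which binds bacterial lipopolysaccharide, had 1.43 and 2.81, against 2.37.

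Many products of airway secretory and goblet cells were higher in shMETTL3 1. Of 38 genes, 28 were listed and 21 had a mean of at least 1. In shMETTL3 1, 13 of the 21 were at least 2-fold higher than shGFP, beside 3.48% of all genes. None was 2-fold lower, and the median log2 difference was 1.25. Among the 13, AGR3 (4.29 and 0, against 0) and CFTR (3.21 and 0.63, against 0.79) passed the minimum mean only through shMETTL3 1. In shMETTL3 2, 5 were at least 2-fold lower and 1, the elastase inhibitor PI3, was higher, with a median of -0.41. Of all genes, 1.8% were lower and 1.16% higher. The 5 lower genes were all among the 13 higher in shMETTL3 1: AGR2, FCGBP, BCAS1, CEACAM5 and CEACAM6. Over all genes, 65 of the 315 lower in shMETTL3 2 were also among the 608 higher in shMETTL3 1. The shMETTL3 1 to shMETTL3 2 comparison, which leaves shGFP out, had 12 of 21 genes at least 2-fold higher in shMETTL3 1 and none lower, beside 5.43% of all genes higher and 2.3% lower.

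AGR2, a disulfide isomerase of the endoplasmic reticulum needed in mice for folding intestinal mucin, had 4548 in shMETTL3 1 and 304 in shMETTL3 2, against 958 in shGFP. FCGBP, a secreted protein of mucus with domains like those of the gel-forming mucins, had 2780 and 107, against 435. Both have the order of libraries seen for MUC5AC and MUC5B. BCAS1, a gene of goblet cells as well as of myelin-forming cells, had 287.5 and 16.9, against 42.1. TSPAN8, a tetraspanin of secretory epithelia, had 33.2 and 0.94, against 1.58. TFF1, a trefoil peptide secreted with mucins, had 40.7 and 5.0, against 7.63. SCGB1A1, the defining secretoglobin of club cells, was near 0, with 0 and 0.31, against 0. Not all detected products rose in shMETTL3 1. ERN2 had log2 differences from shGFP of 0.159 in shMETTL3 1 and 0.341 in shMETTL3 2. PIGR had -0.065 and 0.304 on the same scale, so both genes were within 2-fold of shGFP in each library.

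CEACAM5 and CEACAM6 are cell adhesion proteins of the carcinoembryonic antigen family. CEACAM6 had 10972 in shMETTL3 1 and 114 in shMETTL3 2, against 642 in shGFP. CEACAM5 had 520 and 5.63, against 20.3. Their spread between the knockdown libraries was wider than that of either mucin, with log2 differences from shGFP of 4.09 and -2.48 for CEACAM6 and 4.61 and -1.68 for CEACAM5.

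The list of secretory cell transcription factors holds regulators of such products. Of 25, 22 had a mean of at least 1. Of these, 6 were at least 2-fold higher in shMETTL3 1 than in shGFP, beside 3.48% of all genes. None was lower, and the median log2 difference was 0.69. In shMETTL3 2, 3 were at least 2-fold lower, beside 1.8% of all genes, and none higher, with a median of -0.23. Between the knockdown libraries, 12 of 22 were at least 2-fold higher in shMETTL3 1 than in shMETTL3 2, beside 5.43% of all genes. None was lower, and the number was the same among the 21 products. SPDEF, the ETS factor that drives goblet cell differentiation in mouse airway, had 157.5 in shMETTL3 1 and 14.4 in shMETTL3 2, against 34.2 in shGFP. It was the single factor past 2-fold in opposite directions. FOXA3, a forkhead factor that can induce goblet cell genes in mouse airway, had 53.6 and 8.75, against 14.5. EHF, an epithelial ETS factor, had 213 and 106, against 74.5, so that it was above shGFP in both knockdown libraries. CREB3L1, a membrane-bound factor of the secretory pathway, had 13.6 and 4.06, against 3.68. HNF4A, a nuclear receptor of liver and gut epithelium, was also among those lower in shMETTL3 2, with 60.7 and 11.6, against 34.2.

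For 2 genes whose levels run beside those of the members, the sequence around the annotated start is shown. BPIFB1 is the member with an entry in the RefSeq promoter table, and SPDEF is the factor nearest in profile to MUC5AC. Each window runs 5′ to 3′ on the gene's own strand, from 250 bases before the start to 50 after it, on GRCh38.p14. BPIFB1 is at chr20:33282964-33283263 on the plus strand, and SPDEF at chr6:34556280-34556579 on the minus strand. Capitals mark the forkhead-like letters TATTTAC or their reverse complement GTAAATA.
BPIFB1: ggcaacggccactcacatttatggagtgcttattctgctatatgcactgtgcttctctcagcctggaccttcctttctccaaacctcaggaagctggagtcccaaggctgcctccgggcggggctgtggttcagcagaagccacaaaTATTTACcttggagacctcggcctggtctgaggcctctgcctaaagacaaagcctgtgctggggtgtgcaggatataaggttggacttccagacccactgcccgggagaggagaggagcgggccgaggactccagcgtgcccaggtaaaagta
SPDEF: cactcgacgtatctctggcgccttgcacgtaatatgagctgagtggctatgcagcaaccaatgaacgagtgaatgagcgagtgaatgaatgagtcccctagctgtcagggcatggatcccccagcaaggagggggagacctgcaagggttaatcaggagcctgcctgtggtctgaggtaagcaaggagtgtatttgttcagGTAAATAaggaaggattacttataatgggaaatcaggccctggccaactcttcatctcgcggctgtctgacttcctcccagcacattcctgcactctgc
The match begins 103 bases before the start in BPIFB1, on the gene's strand, and 49 bases before it in SPDEF, on the opposite strand. Searched on both strands, TATTTAC was in 2.67% of 35116 promoter windows of the same length. The other motifs searched were the forkhead letters TGTTTAC (3.42% of windows), the AP-1 letters TGANTCA (7.71%), the SPDEF core CCGGAT (7.12%) and the TATA letters TATAAA (11.53%), and none of them was in these 2 windows. A match describes letters and no binding.

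A further list holds genes that glycosylate, package or release mucins. Of 34, 32 had a mean of at least 1. Of these, 7 were at least 2-fold higher in shMETTL3 1 than in shGFP, beside 3.48% of all genes. None was lower, and the median log2 difference was 0.23. In shMETTL3 2, 1 was at least 2-fold lower and 1 higher, near the shares of all genes (1.8% and 1.16%), with a median of -0.10. ST6GALNAC1, which adds sialic acid to O-linked chains, had 10.4 and 0.63, against 0.26, and passed the minimum mean only through shMETTL3 1. GALNT5, which starts O-linked chains, had 189 and 50.6, against 61.3. B3GNT3, which extends core chains, had 187 and 33.4, against 82.4, and was the gene lower in shMETTL3 2. VAMP8, a vesicle protein of mucin secretion, had 211 and 71.9, against 85.0. MARCKS, which links mucin granules to the cytoskeleton, had 1211 and 515, against 502. These genes were high in shMETTL3 1. On the log2(signal + 1) scale shMETTL3 2 was within 2-fold of shGFP in all of them but B3GNT3, and ST6GALNAC1 rests on few reads in both libraries.

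**Figure D3:**
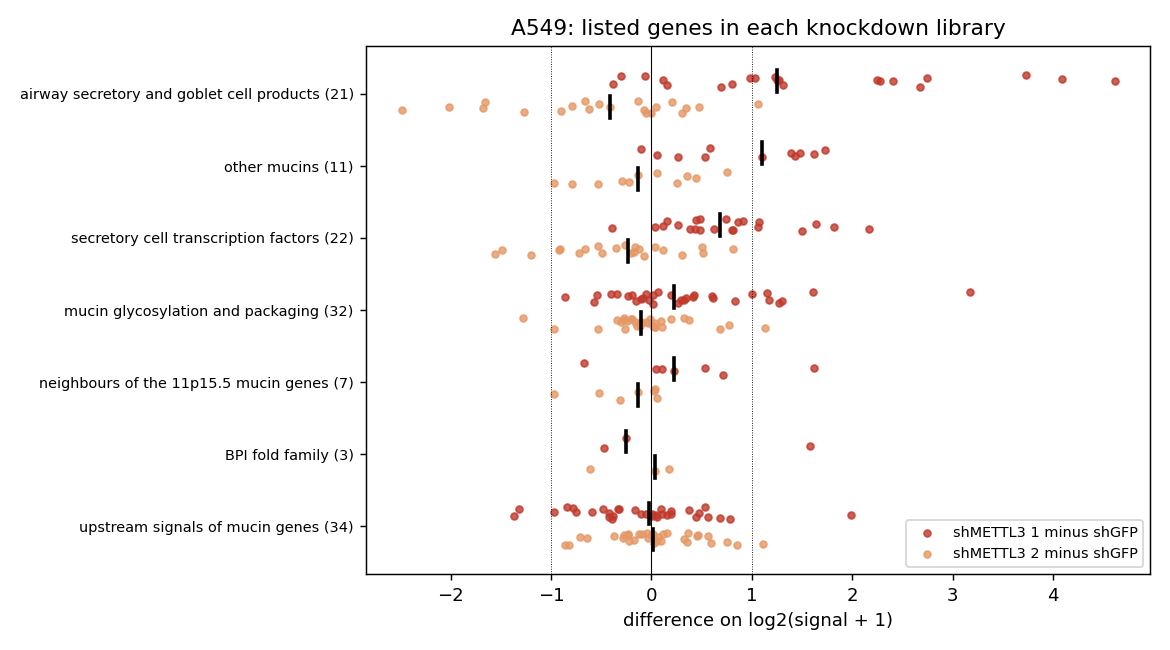
Difference from shGFP in log2(signal + 1) for the listed genes with a mean signal of at least 1 in A549, 1 point for each gene, with shMETTL3 1 above shMETTL3 2 in each list and black bars at the medians. The number of genes is in brackets. Secretory products have medians of 1.25 and -0.41, and upstream signals -0.03 and 0.02.

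Each A549 member was also compared with all genes by its profile of log2(signal + 1), centred within each line, with likeness measured as the Euclidean distance. Over 6 libraries and 17791 genes, the 5 nearest to MUC5AC were TC2N (distance 0.167), SPDEF (0.274), SH3BGRL2 (0.286), HLA-DMB (0.294) and SERPINA6 (0.422). TC2N, a C2-domain protein, had 133 and 10.3 in A549 shMETTL3 1 and 2, against 27.1 in shGFP. The 5 nearest to MUC5B were MGAM (0.624), DRAIC (0.720), FCGBP (0.748), HLA-DMB (0.758) and CDH17 (0.766). MGAM, the maltase-glucoamylase of the intestinal brush border, had 255 and 16.6, against 51.3. CDH17, an intestinal cadherin, had 371 and 19.4, against 64.2.

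BPIFB1 could be compared over the 3 A549 libraries only, among 17451 genes. The 5 nearest were FER1L6 (0.338), CEACAM5 (1.03), ADH1C (1.33), VIL1 (1.34) and C9orf152 (1.37). FER1L6, a ferlin family gene, had 110 and 1.25, against 1.32, close to the values of BPIFB1 in every library. The other 4 were farther off. Which genes are nearest depends on the pseudocount: with 0.1 in place of 1, 0 of 5 stayed for MUC5AC, 2 for MUC5B and 1 for BPIFB1. Over the A549 libraries only, chosen after seeing the data, 2 of 5 stayed for MUC5AC (TC2N and SPDEF) and 4 for MUC5B, where AGR2 (0.498) replaced DRAIC.

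In H1299, where the mucins were near 0, few genes of any kind were past 2-fold. shMETTL3 1 had 160 of 16470 genes (0.971%) at least 2-fold higher than shGFP and 54 (0.328%) lower. shMETTL3 2 had 106 (0.644%) higher and 143 (0.868%) lower. Of all 16470 genes, 22 (0.134%) were at least 2-fold from shGFP in 1 direction in both knockdown libraries. Of 9 secretory products with a mean of at least 1, none was 2-fold changed in either library, with median log2 differences of -0.27 and -0.22, and at those shares of all genes the count says little about the list. FCGBP had 328 and 341, against 556.5 in H1299 shGFP, lower in both. CEACAM5 had 3.6 and 3.6, against 4.7, and SPDEF had 0.2 and 0.2, against 0. FOXA3 was the single one of 16 factors past 2-fold in both, with 5.6 and 7.2, against 2.2. Of 5 other mucins, 2 were past 2-fold in shMETTL3 1: MUC15, a membrane mucin, had 20.9 and 13.0, against 9.8, and MUC3A had 0.7 and 2.2, against 4.5. Among the fibroblast markers the collagen gene COL1A1 had 30.0 and 32.2, against 12.5.

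The m6A side of the set is a peak on chromosome 11 of the A549 lists (hg19). In immunoprecipitation 1 it ran over chr11:1262082-1273010, a width of 10929 bases, the widest of 25074 peaks and 48.8 times the median width of 224. The next widest had 10876 bases. As background, this stretch lies over MUC5B, whose large central exon encodes the repeats that carry the O-linked sugars. Its place in the gene was not checked against an hg19 annotation here. Whether the stretch belongs to MUC5B or to the antisense gene MUC5B-AS1 inside its span was not tested.

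In immunoprecipitation 2 the same stretch held 2 peaks 34 bases apart. The first, chr11:1262088-1263327, was 1240 bases wide with a score of 697. The second, chr11:1263362-1273020, was 9659 bases wide, the widest of 26644 peaks, with a score of 3100 that ranked 2 in its list. The 2 peaks covered 99.6% of the immunoprecipitation 1 peak, so the enriched stretch had almost the same borders in both lists. Scores are the authors' own and are used only within that list. Across the lists, 15449 of 25074 peaks (61.6%) of immunoprecipitation 1 met a peak of immunoprecipitation 2, and 16636 of 26644 (62.4%) the other way.

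Smaller peaks flanked it within 1.2 to 1.3 Mb. At chr11:1212751-1213758 immunoprecipitation 1 had a peak of 1008 bases, met in immunoprecipitation 2 by one with a score of 707. At chr11:1221779-1222354 it had one of 576 bases, met by one with a score of 172. As background, these lie toward the 3′ end of MUC5AC. Immunoprecipitation 2 had 12 peaks in the window in all, covering 14288 bases, and immunoprecipitation 1 had 4, covering 13049. The peak at chr11:1283064-1283398, with a score of 148, was listed in immunoprecipitation 2 and had no counterpart in immunoprecipitation 1.

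The H1299 list had 39235 peaks and none in this window. The peak nearest before the wide one was at chr11:964652-965284, 296797 bases away, and the nearest after it was at chr11:1330060-1331167, 57049 bases away. The H1299 RNA libraries had mucin signals of 0.9 or less, and a peak needs RNA to be seen, so whether the marks differ between the lines cannot be read from these lists. The immunoprecipitated A549 cells have no RNA table here, so the amount of mucin RNA behind the peaks is not known, and no peak list comes from knockdown cells.

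**Figure D4:**
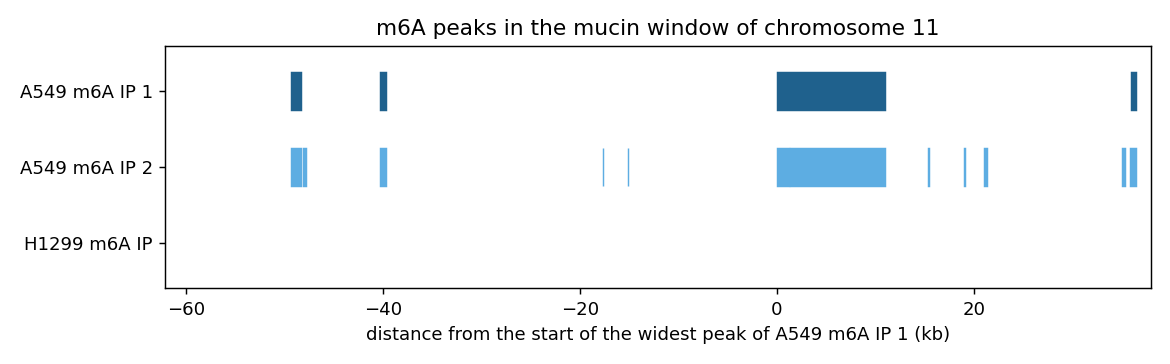
m6A peaks in the mucin window of chromosome 11 in the 2 A549 lists and the H1299 list, drawn as distance in kb from the start of the widest immunoprecipitation 1 peak, with thin outlines so that peaks under 100 bases can be seen. The block of 10929 bases in immunoprecipitation 1 is matched by 2 blocks in immunoprecipitation 2, and the H1299 row is empty.

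Some markers of other cell types were higher in shMETTL3 1 and others were not. Of all genes, 3.48% were at least 2-fold higher in shMETTL3 1 than in shGFP and 1.38% lower. With so few genes in each list the counts say little. Of 8 ciliated cell markers with a mean of at least 1 in A549, 2 were at least 2-fold higher in shMETTL3 1 than in shGFP, and the summed signal of the list was 180 in shMETTL3 1 and 107 in shMETTL3 2, against 112 in shGFP. FOXJ1, a factor of ciliated cells, had 1.79 and 0.94, against 2.37. Of 6 basal cell markers 2 were higher, TP63 and KRT15, with sums of 147 and 59.4, against 68.9. The others were within 2-fold of shGFP in both knockdown libraries. TP63, the defining factor of basal cells, had 27.9 and 5.0, against 4.74. KRT5 had 2.5 and 0.94, against 1.58, and S100A2 had 33.2 and 23.4, against 25.3. Type 2 alveolar markers summed to 593 and 455, against 439, with 1 of 6, SFTPD, past 2-fold. ABCA3 made up most of that sum, while SFTPB, another surfactant protein, had 5.71 and 8.13, against 11.6. Leukocyte markers summed to 237 and 222.5, against 214, with 0 of 5. Fibroblast markers summed to 126 and 98.5, against 92.1, with 2 of 5 higher and 1 lower. Endothelial markers summed to 30.4 and 21.6, against 22.1, with 2 of 4 higher. SFTPD (3.93 and 0.94, against 1.05) and 1 of the higher endothelial markers passed the minimum mean only through shMETTL3 1. The part of these shifts, or of the library itself, in the mucin values was not tested. In such bulk samples more cells of a kind and more RNA per cell cannot be told apart.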

How the data were processed

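RNA tables were analysed for 6 libraries and m6A peak lists for 3 immunoprecipitations. The input samples were not used here. The authors deposited a signal per gene. Tested on the values, every A549 and H1299 value is a whole read number divided by 1 factor per library (2.8, 3.2 and 3.8 for A549 shMETTL3 1, shMETTL3 2 and shGFP, and 4.5, 5.0 and 5.1 for H1299), with 100% of values whole within their rounding. What the factors were based on, the counter, the annotation and the strand setting are not given in the sources used here. Bowtie, TopHat and the hg19 build are named in the submitters' processing notes. The A549 knockdown columns carry another name than the labels and were matched by number. Each deposited peak list has start and end positions and a score of unstated scale, which is 0 throughout for A549 immunoprecipitation 1.

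Differences are of log2(value + 1), computed from the deposited signal, which understates changes of low genes. A gene needed a mean signal of 1 or more in a line. Both shMETTL3 libraries of a line were fitted against its shGFP library by limma 3.58.1 under R 4.3.3 (intensity trend, Benjamini-Hochberg threshold 0.05), which left 1 residual degree of freedom. Its p-values cover only the spread between these libraries. edgeR 4.0.16 (quasi-likelihood) was run on the recovered A549 reads. It was not run on H1299, although those values were also whole read numbers within their rounding. The design had foreseen counts. Only limma was also run on simulated data, and the outcome is not given here. With 1 residual degree of freedom, an absence of called genes does not show an absence of change. Intervals are exact Poisson for a signal, exact binomial for a ratio and Wilson for a share, at 95%, and cover counting error only.

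The members, lists and tests were chosen with earlier results of these data known. Genes are named by 1 rule: the members, the up to 4 genes of each list with the largest difference in A549 shMETTL3 1 and the up to 2 in H1299, defining genes whatever their value, and the 5 nearest to each member. AP2A2, TOLLIP, TFF1, PI3, AGR3, CFTR, PIGR, ERN2, FOXJ1, HNF4A, B3GNT3, VGF, SFTPC, PTPRC and NKX2-1 in A549 fall outside that rule and were named after their values were seen. One listed gene is counted and not reported by name here. Promoter sequences are RefSeq's, and peaks are on hg19 with the first base as 1.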

Additional observations from a re-analysis of the deposited data

How the results depend on the processing

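The differences of the 3 members from shGFP in A549 kept their direction under a pseudocount of 0.1 and median centring. Centring gave 2.04 for MUC5AC and 2.06 for MUC5B in shMETTL3 1. A pseudocount of 0.1 gave 6.59 for BPIFB1 in shMETTL3 1 and -0.66 in shMETTL3 2, against 5.77 and -0.33. The mean over both A549 knockdown libraries has no stable direction: without either library it ranged from -1.43 to 2.10 for MUC5AC (0.34 with both), from -2.31 to 2.13 for MUC5B (-0.09) and from -0.33 to 5.77 for BPIFB1 (2.72). The count of genes at least 2-fold higher in shMETTL3 1 was 608, 844 with a pseudocount of 0.1, 401 with a mean of at least 5 and 1622 at 1.5-fold. The log2 difference of number 1 minus number 2 in A549 correlated with that in H1299 at r = 0.24 over 15567 genes. With 2 pairs that does not show pairing, and a replicate block over all 6 libraries called 1 gene in A549, VGF, against 0 without it, and 0 in H1299. The members were not in that fit, since they are below the minimum in H1299. Every other alternative fixed for the limma counts, and edgeR with either normalization, called 0 genes. Without either knockdown library the lone one was assumed to vary like the rest. Depth limits BPIFB1, with 2 and 4 reads outside shMETTL3 1, and the H1299 mucins.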

Other observations

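A list of signals known to act on mucin genes was read in A549 in the same way. Of 38 genes 34 had a mean of at least 1. Of these, 1 was at least 2-fold higher in shMETTL3 1 than in shGFP and 2 were lower, beside 3.48% and 1.38% of all genes. At those shares the counts say little about the list. Its medians were -0.03 in shMETTL3 1 and 0.02 in shMETTL3 2. HBEGF, a ligand of the epidermal growth factor receptor, had a signal of 14.3 in shMETTL3 1 and 46.9 in shMETTL3 2, against 37.1 in shGFP. EREG, another ligand of that receptor, had 551 and 1072, against 1077. Both were lowest in shMETTL3 1, EREG by less than 2-fold. The other ligands of that receptor on the list did not all share this order. The cytokine IL1B had 7.14 and 3.44, against 1.05, higher in both knockdown libraries, and IL6 had 0.71 and 4.69, against 3.42.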
